A study of Mus musculus with 4 samples.

Results

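The genes described here are the SR proteins and the heterogeneous nuclear ribonucleoproteins (hnRNPs), the RNA-binding proteins that choose splice sites, together with SR-like genes that the array design lists under Sfrs names. Members were the gene probes, outside the array's control spots, whose design name begins with Srsf or Sfrs and a digit, or with Hnrnp or Hnnp. The rule found 34 of 29411 gene names, read by 62 of 40628 gene probes. All 62 were well above background on all 4 arrays, so none was lost to the filter on dim probes, which kept 59.6% of all gene probes. Of the 34 genes, 14 had 1 probe and 20 had more. The label fits only part of the set: 8 of the 17 genes under Srsf or Sfrs names are not classical SR proteins but proteins that resemble or bind them, now called Sfswap, Srek1, Srek1ip1, Sugp2, Scaf4, Clasrp, Akap17b and Scaf11.

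Classical SR proteins carry RNA recognition motifs and a tail rich in arginine and serine, bind exonic enhancers and favour the inclusion of exons. The hnRNPs coat new transcripts and often bind silencers, and many also act in the export, translation or decay of messenger RNA. Genes of both families commonly make several transcripts, some of which are removed by nonsense-mediated decay, so probes in different places of 1 gene can read different transcripts.

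Total RNA came from C3H10T1/2 cells, a mouse embryo fibroblast line, transformed in culture with 2.5 µg/ml of the carcinogen 3-methylcholanthrene for 2 days, 4 days of normal medium, 100 ng/ml of the tumour promoter TPA given through 2 weeks, and 4 weeks of normal medium. The control group (2 arrays) was these transformed cells, and the phorone group (2 arrays) was the same transformed cells exposed to 2 mM phorone, a ketone used to deplete glutathione. How long the exposure lasted, in which vehicle, and whether the cells grew from 1 focus was not stated in the sources used here. Nothing in the labels says that the samples were separate cultures, so a p-value reflects just the spread among these samples, and that may be technical. Levels are log2 signals relative to each array's 75th percentile, changes are phorone minus control with the standard error (SE), errors of means are SD with n = 2, and a probe was called at a limma adjusted p below 0.05 over 24205 probes.

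On each array 51.1% to 52.7% of spots passed the scanner's background test, and none was saturated. All 4 arrays lay on 1 slide, the controls in row 1 and the phorone arrays in row 2, and the row and the treatment therefore cannot be told apart. The spike-in RNAs stood 3.41 above the 75th percentile on control array 2, against 2.56 to 2.76 on the other arrays. Of 11 fibroblast marker genes, 10 were well above background on all 4 arrays, as were 2 of 6 epithelial, 1 of 5 leukocyte (Cd68) and 0 of 4 endothelial marker genes. With phorone 8 of the 11 fibroblast genes had a probe called lower and none a probe called higher, and their summed linear signal relative to the 75th percentile lay between 1630 and 1710 in control cells and between 704 and 745 with phorone. Dcn (-4.52), Col3a1 (-3.38 on its brighter probe) and Pdgfra (-2.98) fell most among those above background on all arrays, chosen after their values were seen. The leukocyte sum lay between 0.289 and 0.331 in control cells and between 0.564 and 0.750 with phorone, with Cd68 called higher (1.26), and the endothelial sum between 0.104 and 0.111, then 0.0401 and 0.0633, with Tek called lower (-3.05); the epithelial sum stayed between 0.302 and 0.372. The part of these changes in any result below was not tested.

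Probes of these genes were called higher with phorone more often than lower, and most changes were below 2-fold. Of the 62 probes, 18 (29.0%) were called higher and 7 (11.3%) lower, and 37 were not called. The background was large: over all probes tested 45.8% were called either way, 25.5% higher and 20.3% lower. The members' share of higher calls was thus close to the background and their share of lower calls was below it. Their median log2 change was 0.34, against 0.11 over all probes, and their median absolute change was 0.41, against 0.48. Of the 62, 6 were called and changed at least 2-fold (2 higher, 4 lower), where 20.6% of all probes did. The 2 groups did not overlap for 52 member probes, where 77.9% of all probes showed no overlap. Every called member probe was among these 52, so the lack of overlap given below for a called probe adds no support to its call.

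How many probes were called depended on the arrays and on the scaling. Over all probes, higher and lower calls were both fewer in every fit that left out 1 array. Among the members, higher calls were more numerous without control replicate 1 and fewer in each other such fit. The 18 higher calls became 4 without phorone replicate 2, 10 without phorone replicate 1 and 11 without control replicate 2, whereas the lower calls stayed at 6 or 7 in these fits and without control replicate 1. Of the 25 calls, 10 were kept whichever array was left out, 4 of them higher (Hnrnpa2b1, Hnrnpm and 1 probe each of Hnrnpu and Hnrnpf) and 6 lower (Srsf3, both probes of Akap17b, and 1 probe each of Srsf7, Sugp2 and Hnrnpa3). The share of all called probes kept in this way was not counted. Over all probes too, leaving out either phorone array cost more higher calls than lower ones. When the arrays were scaled on the spike-in RNAs, the median change of all probes moved to 0.54 and that of the members to 0.78. Under that scaling 8 member probes were called higher and 0 lower by limma (0 lower also at an unadjusted p below 0.05), where 18.4% of all probes were higher and 6.66% lower. The 7 lower probes stayed below 0 there, between -0.05 and -0.85. With control replicate 2 also left out of that scaling, 6 were higher and 5 lower. Each direction below is relative to the 75th percentile.

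**Figure D1:**
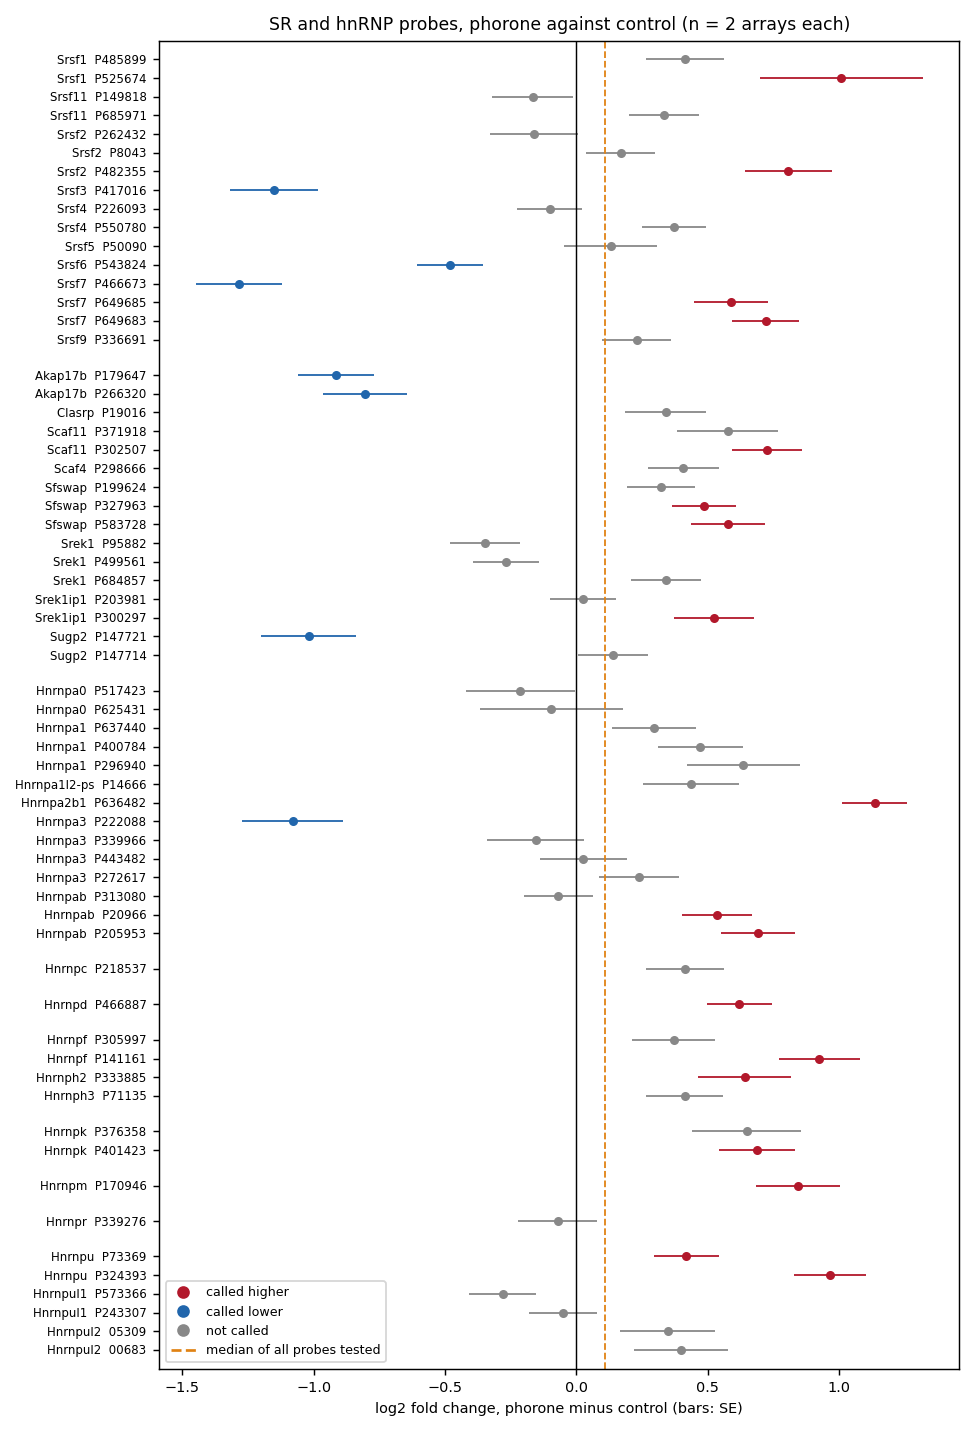
Log2 change with phorone (x axis; bars are the SE) of each of the 62 probes (y axis), grouped by family and coloured by limma call, with the median of all probes tested as a dashed line. The 7 lower probes lie between -1.29 and -0.48, the 18 higher ones between 0.42 and 1.13, and Srsf7 has probes on both sides.

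Among 16 probes of 9 classical SR proteins, 4 (25.0%) were called higher and 3 (18.8%) lower, shares close to the 25.5% and 20.3% of all probes, with a median change of 0.20. The higher calls were 1 without control replicate 2 and 0 without phorone replicate 2. Scaled on the spike-in RNAs, 3 probes were higher and none lower. Srsf3, the smallest SR protein, which also serves as an adaptor for mRNA export, stood at -0.41 and -0.04 in control cells and at -1.39 and -1.36 with phorone. Both phorone arrays were below both control arrays, and the 1 probe of the gene fell by 1.15 (SE 0.17, adjusted p = 0.00572). Srsf6, a regulator of exon inclusion, was measured at 2.08 and 2.16 in control cells and at 1.68 and 1.60 with phorone, again without overlap. Its probe fell by 0.48 (SE 0.13, adjusted p = 0.0308), a call kept only without control replicate 1.

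Srsf1, the founding member of the family, had 2 probes, both with all phorone values above all control values. Probe P525674 read -0.97 and -1.83 in control cells and -0.55 and -0.24 with phorone, a rise of 1.01 (SE 0.31, adjusted p = 0.0492) that was lost without control replicate 2 or phorone replicate 2. The brighter probe P485899 changed by 0.41 (SE 0.15) and was not called (adjusted p = 0.0744). Srsf5 (0.13), Srsf9 (0.23) and both probes of Srsf11 (-0.17 and 0.33) were not called. A probe for Srsf12, which the design lists under a clone name that the rule does not match, was not well above background on any array.

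Srsf7 was the gene whose probes parted furthest. Its protein has a zinc knuckle beside its RNA recognition motif and, like that of Srsf3, acts in both splicing and export. The starting or closing 30 bases of its 60-base probes are shown because the direction of change depends on which probe is read; capitals mark a stretch of 20 bases that 2 of the probes share.
Srsf7 P649683, bases 1 to 30: TATTAACATCTTATGGTCTGaaaatgtggg
Srsf7 P649685, bases 31 to 60: ttgttgaatgTATTAACATCTTATGGTCTG
Srsf7 P466673, bases 1 to 30: ggaattgtcaagcttagagggaccactgat

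The 2 overlapping probes were both higher. P649683 went from 3.91 and 3.79 to 4.56 and 4.58, a rise of 0.72 (SE 0.13, adjusted p = 0.00975) that was lost without phorone replicate 2. P649685 went from 2.69 and 2.65 to 3.15 and 3.37, a rise of 0.59 (SE 0.14, adjusted p = 0.0231) that was called in 1 of the 4 fits leaving out an array, that without phorone replicate 1. Since they share sequence they are not independent measurements of the gene. The remaining probe, P466673, which shares no stretch of 20 bases with them, went the other way, from 0.34 and 0.51 to -0.71 and -1.02. It fell by 1.29 (SE 0.16, adjusted p = 0.00406), with both phorone arrays below both control arrays.

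The design allowed a direct test of such splits, because the scaling of an array cancels when 2 probes of a gene are subtracted on the same array. Each probe was compared in this way with the brightest probe of its gene, which gave 28 differences in 20 member genes and 7115 over all genes. At an unadjusted limma p below 0.05 there were 11 of the 28 differences, a count not made over all genes. Limma called 7 of the 28, 1 in each of 7 genes, where 21.6% of all such differences were called. That share is close to the background, and the median absolute difference was 0.28 in the members and 0.28 over all genes. None of the 7 was called in every fit that left out 1 array. In the fit without phorone replicate 2, no difference of any gene was called, so the loss of calls there was not particular to the members. With the replicate number as a block, 3 of the 7 were called (Srsf7, Sugp2 and Srsf2).

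**Figure D2:**
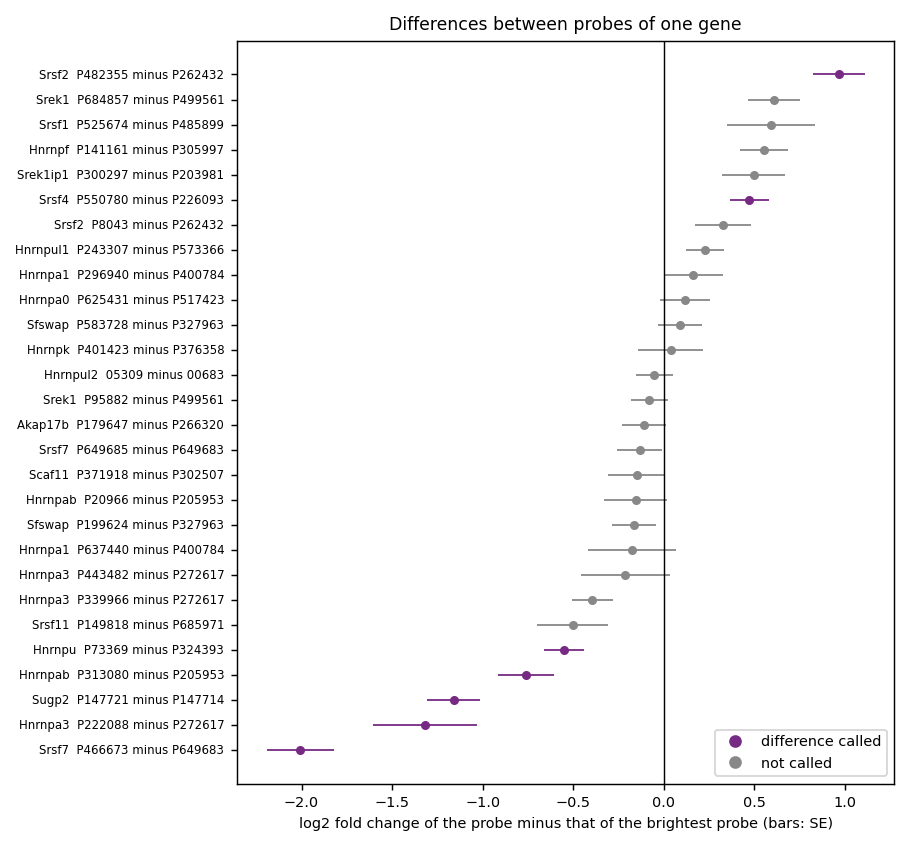
Log2 change of a probe minus that of the brightest probe of the same gene (x axis; bars are the SE) for the 28 probe pairs (y axis), with the 7 called by limma in purple. Srsf7 lies lowest at -2.01 and Srsf2 highest at 0.97.

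Srsf7 P466673 changed by -2.01 relative to P649683 (SE 0.19, adjusted p = 0.00905), a 4.02-fold relative loss. The gap between the probes was -3.58 and -3.28 in control cells and -5.26 and -5.60 with phorone. The call was lost only without phorone replicate 2, and under the block the adjusted p was 0.0323. The overlapping pair differed by -0.13 (SE 0.12, not called).

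Srsf2 and Srsf4 were the other SR proteins with unequal probes. The 30-base stretches shown are those of the compared probes; capitals mark the hexamer ATTAAA, a variant of the polyadenylation signal.
Srsf2 P262432, bases 1 to 30: gtccagtttATTAAAatgcctgacaactgc
Srsf2 P482355, bases 1 to 30: cgagagtccaagtctaggtcgcggtccaag
Srsf4 P226093, bases 31 to 60: gtgattatattgttttatATTAAAaggaaa
Srsf4 P550780, bases 1 to 30: gctccaggtcaaaatcggcttcaaaaacac

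Srsf2, long used as a marker of nuclear speckles, was higher on P482355, from 2.40 and 2.28 to 2.97 and 3.32 (0.81, SE 0.17, adjusted p = 0.0153). That call was lost without control replicate 2 or phorone replicate 2. Its brightest probe P262432 read 4.34 and 4.52 in control cells and 4.11 and 4.43 with phorone, groups that overlapped (-0.16, SE 0.17, not called), and P8043 changed by 0.17 (SE 0.13, not called). The difference between P482355 and P262432 was 0.97 (SE 0.14, adjusted p = 0.0187). In Srsf4 neither probe was called on its own. P226093 read 1.92 and 2.01, then 1.85 and 1.87, and P550780 read 0.46 and 0.45, then 0.81 and 0.84. The groups did not overlap on either probe, in opposite directions. Their difference was 0.47 (SE 0.11, adjusted p = 0.0490), a call lost whichever array was left out.

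**Figure D3:**
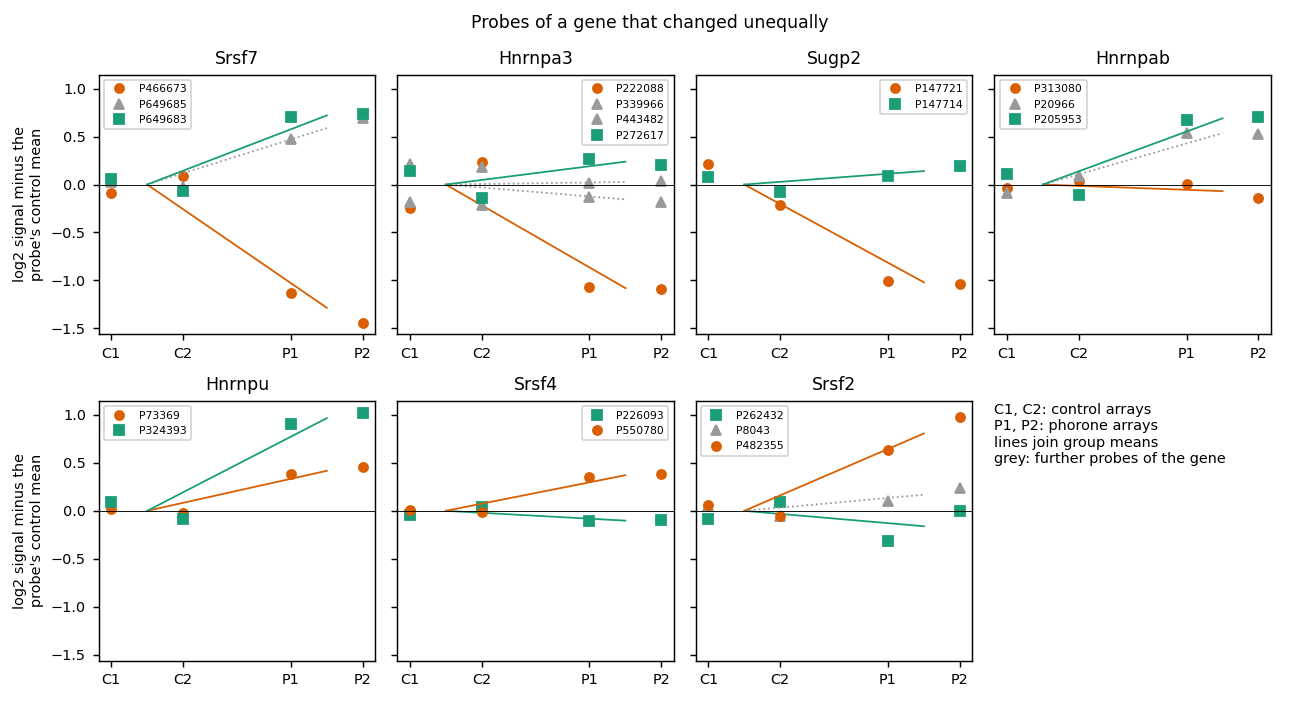
Log2 signal of each probe minus its own control mean (y axis) on the control (C1, C2) and phorone (P1, P2) arrays (x axis) for the 7 genes with a called difference; orange is the probe tested, green the brightest probe, grey any further probe, and lines join group means. In Srsf7 the orange points of the phorone arrays lie below the control mean (mean change -1.29), and those of the other probes lie above it.

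Of 16 probes for the SR-like genes under Sfrs names, 4 (25.0%) were higher and 3 (18.8%) lower, again close to the shares over all probes, with a median change of 0.33. The higher calls were 2 without control replicate 2, 1 without phorone replicate 1 and 0 without phorone replicate 2, and spike-in scaling left 1 higher and none lower. Akap17b, an anchoring protein for protein kinase A that was once grouped with the SR proteins, was lower on both its probes. P179647 went from -0.96 and -1.16 to -1.89 and -2.04, a fall with no overlap (-0.91, SE 0.14, adjusted p = 0.00708). P266320 fell by 0.80 (SE 0.16, adjusted p = 0.0134), and the 2 probes did not differ detectably (-0.11, SE 0.12).

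Scaf11, which binds SR proteins and the polymerase tail, was higher on P302507, from 3.31 and 3.48 to 4.11 and 4.13 (0.72, SE 0.13, adjusted p = 0.0108; lost without phorone replicate 2). Its second probe changed by 0.58 (SE 0.19, not called). Sfswap, the counterpart of the fly suppressor of white-apricot, was higher on 2 of 3 probes. The larger of these, P583728, went from 1.17 and 0.93 to 1.65 and 1.61 (0.58, SE 0.14, adjusted p = 0.0257). The other, P327963, rose by 0.49 (SE 0.12), and the remaining one changed by 0.32 (SE 0.13, not called). Both Sfswap calls were kept only without control replicate 1. Srek1ip1, a partner of Srek1, was higher on P300297, from 1.77 and 1.48 to 2.18 and 2.12 (0.52, SE 0.15, adjusted p = 0.0424), with the same dependence on arrays, while its brightest probe changed by 0.03 (SE 0.13). Srek1 itself had changes of -0.35, -0.27 and 0.34 on its 3 probes, Scaf4 of 0.41 and Clasrp of 0.34, none of them called.

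Sugp2, a protein with SURP and G-patch domains, had probes that moved apart. The first 30 bases of both are shown.
Sugp2 P147714: aagtcgctgaaagttggcatgatcactgcc
Sugp2 P147721: tcccatagccaaaaagaagaaacccaagga

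P147721 went from -0.41 and -0.84 to -1.63 and -1.66, so that both phorone arrays were lower than both control arrays (-1.02, SE 0.18, adjusted p = 0.0100). P147714 read -1.05 and -1.20, then -1.04 and -0.93 (0.14, SE 0.13, not called). The difference of -1.16 was called (SE 0.15, adjusted p = 0.0141; 0.0324 under the block), and was kept in 2 of the 4 fits that left out 1 array.

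Of 30 hnRNP probes of 17 genes, 10 (33.3%) were called higher and 1 (3.33%) lower, with a median change of 0.41. Over all probes the shares were 25.5% and 20.3%, and the median change was 0.11. Higher calls were more numerous without control replicate 1, and fewer without control replicate 2 or either phorone replicate. Scaling on the spike-in RNAs left 4 higher and 0 lower, where 18.4% of all probes were higher and 6.66% lower. Of these probes, 20 list more than 1 RefSeq accession in the design, and hnRNP genes have many processed copies, so their probes may read more than 1 locus.

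In the A and B subfamily, 3 of 14 probes were higher and 1 lower (median 0.27). Hnrnpa2b1, a core packaging protein that also sorts messages and microRNAs, showed the largest rise of all members. Its probe went from 3.43 and 3.51 to 4.59 and 4.62, well apart from the controls (1.13, SE 0.12, adjusted p = 0.00269), and was also called under spike-in scaling (1.57). Hnrnpa1, the best studied antagonist of SR proteins at splice sites, was not called on any of 3 probes (0.30, 0.47 and 0.64), although the groups did not overlap on any of them. Hnrnpa1l2-ps, annotated as a pseudogene, changed by 0.44 and the 2 probes of Hnrnpa0 by -0.21 and -0.10, none of them called.

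Hnrnpa3 and Hnrnpab, relatives of Hnrnpa1 and Hnrnpd that bind and transport messages, each had 1 probe that parted from the brightest one. The first 30 bases of each compared probe are shown.
Hnrnpa3 P272617: aggaaacccttcttgttcaggactgtcata
Hnrnpa3 P222088: cgtgtataaattaggggacacatggtaaga
Hnrnpab P205953: aaggtattttacacgtgtcctgattttgcc
Hnrnpab P313080: gggatctgagctttgtataacaaccacttt

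Hnrnpa3 P222088 fell from 2.42 and 2.90 to 1.60 and 1.57, with no overlap (-1.08, SE 0.19, adjusted p = 0.0101). P272617 read 7.39 and 7.10, then 7.52 and 7.46 (0.24, SE 0.15, not called), and the other probes changed by -0.16 and 0.03; the latter shares 45 bases with a probe of another locus. The difference between P222088 and P272617 was -1.32 (SE 0.29, adjusted p = 0.0455) and was not called after quantile normalisation or under the block (adjusted p = 0.0585). For Hnrnpab, P205953 rose from 7.08 and 6.86 to 7.65 and 7.67 (0.69, SE 0.14, adjusted p = 0.0147), and P20966 by 0.54 (SE 0.13). Both calls were lost without either phorone array, and that of P20966 also without control replicate 1. P313080 read 3.41 and 3.47, then 3.44 and 3.30, with overlapping groups. It changed by -0.76 relative to P205953 (SE 0.16, adjusted p = 0.0401), again not called after quantile normalisation or under the block (adjusted p = 0.0907).

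The remaining hnRNPs had no lower calls. Hnrnpd, which binds AU-rich elements and promotes the decay of unstable messages, went from 3.66 and 3.72 to 4.34 and 4.27 (0.62, SE 0.12, adjusted p = 0.0139). Hnrnpm, a regulator of exon choice, went from 5.53 and 5.20 to 6.22 and 6.19 (0.84, SE 0.16, adjusted p = 0.0119). For both genes the phorone arrays lay above the control arrays, and only the Hnrnpm call was kept whichever array was left out; that of Hnrnpd was lost without either phorone array. Hnrnpc, which binds uridine tracts, changed by 0.41 and Hnrnpr, an mRNA transport factor, by -0.07, neither called.

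Among the F and H proteins, which bind runs of guanines, 2 of 4 probes were higher. Hnrnpf P141161 went from -0.43 and -0.64 to 0.28 and 0.51 (0.93, SE 0.16, adjusted p = 0.00842), while the brighter P305997 changed by 0.37 (SE 0.16, not called). Hnrnph2 went from 3.80 and 3.41 to 4.19 and 4.30 (0.64, SE 0.18, adjusted p = 0.0356; kept only without control replicate 1), and Hnrnph3 changed by 0.41 (not called). Neither called gene showed overlap between the groups. Hnrnpk, a poly(C)-binding protein that also acts in transcription, had 2 probes with nearly equal changes. P401423 went from -0.14 and -0.32 to 0.37 and 0.55 (0.69, SE 0.14, adjusted p = 0.0162; lost without phorone replicate 2). P376358 changed by 0.65 (SE 0.21), which was not called (adjusted p = 0.0536); its control arrays read 7.66 and 7.13.

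Hnrnpu, the scaffold attachment factor that ties RNA to chromatin, was higher on both probes, by unequal amounts. The first 30 bases of each are shown.
Hnrnpu P324393: agcagggtcaattctggggtcagaagccat
Hnrnpu P73369: aaggggtcctcatgaattgcattaagattc

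P324393 went from 4.98 and 4.81 to 5.80 and 5.92 (0.97, SE 0.14, adjusted p = 0.00535). P73369 went from 3.60 and 3.56 to 3.96 and 4.03 (0.42, SE 0.12, adjusted p = 0.0438), a call lost whichever array was left out. The phorone arrays were above the control arrays on both. The difference of -0.55 (SE 0.11, adjusted p = 0.0395) was likewise lost in every such fit and under the block (adjusted p = 0.0911). Of its relatives, Hnrnpul1 changed by -0.28 and -0.05 on 2 probes, neither called. Hnrnpul2 had 2 probes of identical sequence, which check only the spread between spots of the same array. They changed by 0.40 and 0.35 (not called) and differed from each other by -0.0095 to -0.084 on the 4 arrays. Spread between arrays is not covered: on the control arrays 1 probe read 3.27 and 2.85, the other 3.26 and 2.84.

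With the brightest probe standing for its gene, 9 of the 34 genes (26.5%) were higher and 3 (8.82%) lower, against 24.3% and 21.2% of all genes. With the mean of each gene's probes 11 (32.4%) were higher and 3 lower, against 25.1% and 20.7%. Counted over probes, 5 genes had every probe called higher, 3 every probe called lower, 1 (Srsf7) had calls both ways, 10 had called beside uncalled probes, and 15 had none called. Among the genes with every probe called 1 way, only Hnrnpu (higher) and Akap17b (lower) had more than 1 probe. The counts of genes by the calls of their probes were not made over all genes. They are therefore no sign that the members differ from other genes.

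Sequence features of the probes were close to those of all probes. The hexamers AATAAA or ATTAAA, searched on the listed strand only, occurred in 7 member probes (11.3%) and in 11.4% of all gene probes tested. Of the 7 member probes, 3 were called higher and 0 lower. Of all 2765 gene probes with a hexamer, 625 were called higher and 477 lower. Median GC content was 40.0% in the members and 43.3% in all probes, 36.7% in the 18 higher and 41.7% in the 7 lower members.

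Genes that work with these proteins were examined through 6 lists without the members. Over all probes, 25.5% were called higher and 20.3% lower (median change 0.11), or 18.4% and 6.66% under spike-in scaling. The kinase and import list had 40% of its probes higher and 6.67% lower. The SR-like and exon junction list had 31.2% and 0%, and the nonsense-mediated decay list 31.2% and 9.38%. Kinases and import receptors of SR proteins rose on 12 of 30 probes and fell on 2 (median 0.33), with 12 and 0 under spike-in scaling. Lower calls in this list were more numerous without control replicate 2 and fewer in each other fit that left out 1 array. The SR protein kinase Srpk1 was higher on both its probes (1.08 and 1.01), as were the kinases Clk1 (0.93 and 0.98) and Clk4 (1.06, 1.24 and 1.33), which release SR proteins from speckles. Their relatives Clk2 (-0.28 and -0.12) and Clk3 (0.27 and 0.34) were not called. The import receptor of SR proteins, Tnpo3, was higher on both probes tested (0.76 each). The largest changes were in the receptors Tnpo2, on P401579 from -3.12 and -3.30 to -1.10 and -1.04 (2.14, SE 0.14; 0.41 and not called on its other probe), and Tnpo1, from 3.63 and 3.33 to 5.61 and 5.62 (2.14, SE 0.15), which carry hnRNP A1 into the nucleus. Srpk2 had 5 probes, of which P303629 fell by 1.18 (SE 0.20) from -3.06 and -2.81 to -4.33 and -3.90, another fell by 0.53, and 3 were not called (0.08 to 0.45).

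Core snRNP and spliceosome proteins had the largest share of calls, 51 of 99 probes higher and 4 lower (55.6% called; median 0.47). The higher calls were 30 under spike-in scaling, 24 without phorone replicate 1 and 21 without phorone replicate 2. The 4 lower calls were 7 without control replicate 1 and 2 without either phorone replicate. Only 1 probe was lower when scaled on the spike-in RNAs. The largest rises were on probes of the second-step factors. Prpf18 rose by 2.08 (SE 0.21; from -2.24 and -2.51 to -0.54 and -0.05) on P62270 and was not called on its other probes (0.49 and 0.55). Cdc40 rose by 1.77 (SE 0.13; from -1.26 and -1.22 to 0.47 and 0.58) and, on its other probe, by 0.91. The branch-point protein Sf3b1 fell by 1.75 (SE 0.14; from 0.37 and 0.23 to -1.35 and -1.56) on P625808 but changed by 0.39 (SE 0.12, not called) on P220190. The helicase Ddx46 went both ways: P642501 fell by 1.09 (SE 0.17; from 0.02 and 0.01 to -0.89 and -1.26), P264468 and P106739 rose by 1.06 and 1.28, and P161225 was not called (0.35).

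SR-like and exon junction proteins had 10 of 32 probes higher (31.2%, against 25.5% of all probes) and 0 lower, with a median of 0.21 against 0.11. Under spike-in scaling 3 were higher, where 18.4% of all probes were. The higher calls were 5 without control replicate 2, 4 without phorone replicate 1 and 2 without phorone replicate 2, and 1 was lower without control replicate 1. The largest were Pnn (1.28, SE 0.12; from 1.90 and 1.94 to 3.24 and 3.16) and Luc7l3 (1.28, SE 0.20; from 4.80 and 4.30 to 5.78 and 5.87). The nonsense-mediated decay genes had 10 of 32 higher and 3 lower (median 0.41; 11 and 0 under spike-in scaling; 6 and 1 without phorone replicate 2, and 11 and 1 without phorone replicate 1). A single one of 6 probes of the kinase Smg1, P457171, was called, with a rise of 1.89 (SE 0.17; from -2.80 and -2.87 to -1.12 and -0.76), and the others changed by 0.13 to 0.95. The nuclease Smg6 fell by 0.99 (SE 0.18; from 1.56 and 1.74 to 0.86 and 0.46) on P142883 and by 0.66 and 0.51 on 2 further probes, and was not called on P628928 (-0.47). On each probe of these lists given with its 4 values, the phorone arrays lay clear of the control arrays. These probes were chosen as called with the largest changes, so this adds no support, and 77.9% of all probes showed no overlap.

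Of 76 probes for other regulators of alternative splicing, 20 (26.3%) were higher and 12 (15.8%) lower, near the shares over all probes (median 0.13; 13 and 5 under spike-in scaling; 13 and 7 without phorone replicate 2). Fubp1 rose by 1.31 (SE 0.20, from -2.10 and -2.58 to -1.12 and -0.94). Celf2 fell by 2.18 (SE 0.12, from -1.44 and -1.52 to -3.65 and -3.67) on P100909 and was also lower on P182471 (-1.91). Its remaining probe was called lower too (-2.43), but was well above background on only 2 arrays and read -6.14 and -5.44 with phorone. Syncrip, also known as hnRNP Q, had probes called both ways: P80806 fell by 1.25 (SE 0.15; from 1.35 and 1.48 to 0.29 and 0.05), P384469 rose by 0.80 (SE 0.13), and the others were not called (-0.39 and 0.45). A probe that the design names Matr3 rose by 1.46 (SE 0.17; from -3.18 and -3.44 to -1.997 and -1.71), but its accession is that of the small nucleolar RNA gene Snora74a. Of 11 probes for hnRNP and SR genes under names outside the rule, 2 were higher and 2 lower. Srsf10, an SR protein that represses splicing when dephosphorylated, rose by 0.83 (SE 0.14; from 1.09 and 1.05 to 1.80 and 2.00) on P250968, fell by 1.70 (SE 0.21; from -1.65 and -1.61 to -3.61 and -3.05) on P519592, and was not called on its other probe (0.13). Hnrnpll rose by 1.12 (SE 0.14; from 1.44 and 1.24 to 2.47 and 2.45) on 1 of 2 probes, and Hnrnpdl fell by 0.84 (SE 0.14; from 2.05 and 2.09 to 1.32 and 1.13) on 1 of 4. Hnrnpl (0.41) and Hnrnph1 (0.03) were not called.

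**Figure D4:**
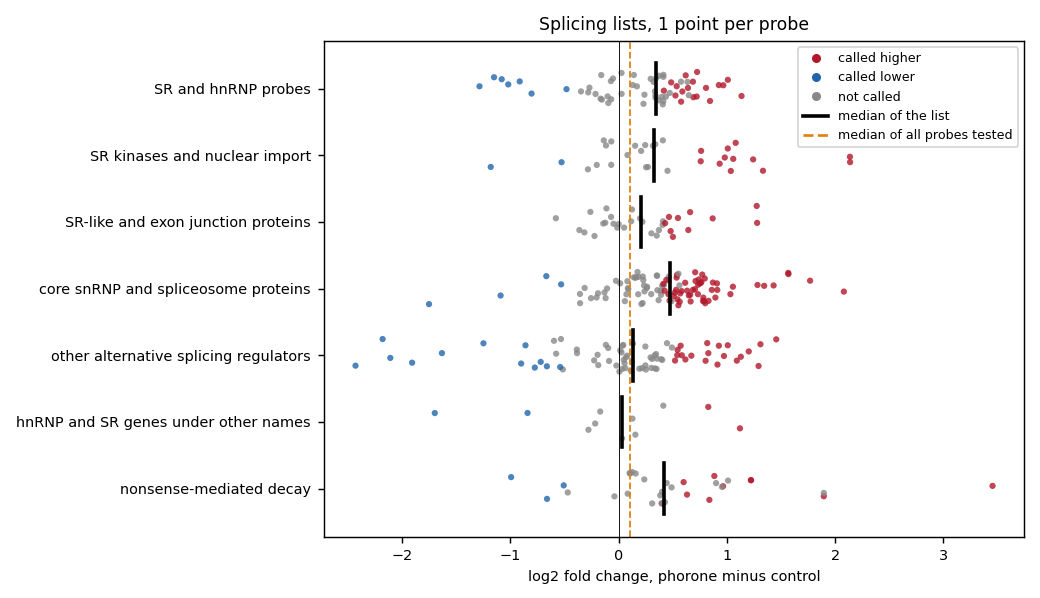
Log2 change with phorone (x axis) of each tested probe of the SR and hnRNP genes and of the 6 related lists (y axis, points spread vertically for visibility), coloured by limma call, with list medians as black bars and the median of all probes as a dashed line. The core spliceosome list has the highest median (0.47) and the SR and hnRNP probes lie at 0.34.

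**Figure D5:**
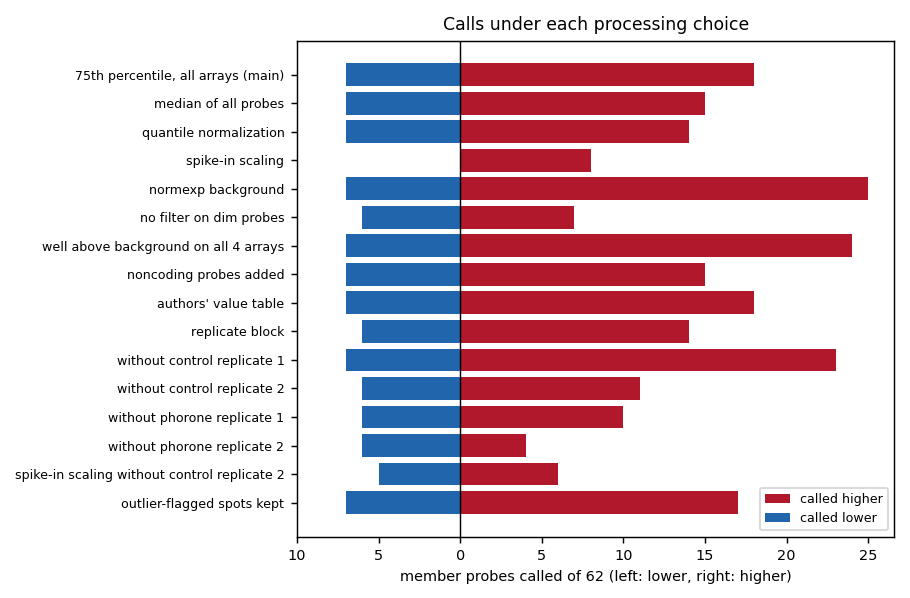
Number of the 62 member probes called lower (left of 0) and higher (right of 0) by limma (x axis) under each processing choice (y axis). Lower calls stay at 5 to 7 except under spike-in scaling of all arrays, with 0, while higher calls run from 4 to 25.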

How the data were processed

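Per the file headers, the authors' deposited scanner files hold 1-colour (Cy3) intensity values from Agilent Feature Extraction 10.7.3.1, background-subtracted and not normalised between arrays. A value table, also deposited by the authors, gives log2 numbers, namely the log2 processed signal minus 1 number per array near its 75th percentile (SD at most 0.0223 around it). Groups came from the sample titles. Here, log2 processed signals minus each array's 75th percentile were fitted per probe with limma 3.58.1 in R 4.3.3 (group term only, two-sided, 2 residual and 3.08 prior degrees of freedom, Benjamini-Hochberg adjustment). Probes flagged as outliers were left out (111, no member), and a probe had to be well above background on both arrays of a group. Within-gene differences were fitted in the same way. The script was tested on simulated data. Names came through RefSeq (GRCm38.p6): 58 member probes by accession, 3 by synonym, 1 by its array name; no coordinates are given, since the files use another build. Members and lists were chosen with earlier results of these data known. Values on all arrays are given for up to 3 called probes each way per family (1 per gene), for genes with unequal probes, and for up to 2 called genes each way per related list; genes named beside these were chosen after their values were seen. A gene that this rule names in the related lists is not reported here. Alternatives tried were 4 other scalings or corrections, other filters, the authors' table, a replicate block, leaving out each array, and 1 value per gene.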

Additional observations from a re-analysis of the deposited data

How the results depend on the processing

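No called probe of a member changed its sign under any alternative fitted per probe. The fits with 1 value per gene were not compared for sign. There the brightest probe can differ in sign from a called probe, as in Srsf7 (0.72 against -1.29). With 2 arrays a group, leaving out 1 array leaves a lone sample assumed to vary like the other group, and the number of arrays limits every value. Leaving out each array gave 4 to 23 member probes higher and 6 to 7 lower, a median change of 0.28 to 0.38, 0 to 8 within-gene differences, and 55 to 94 higher and 13 to 24 lower probes in the related lists (105 and 23 with all arrays). Spike-in scaling gave 8 higher and 0 lower members, a median of 0.78, and 7 lower probes in the related lists. Spike-in scaling without control replicate 2, chosen after seeing the data, gave 6 higher members, 4 within-gene differences and 13 lower probes in the related lists. With no filter on dim probes, 7 members (11.3%) were higher, where 9.43% of all probes were. In that fit 1 within-gene difference was called, and 59 and 14 related probes were higher and lower. The brightest probe per gene gave 9 higher and 3 lower genes, and averaging the probes of each gene gave 11 and 3. The replicate block gave 14 higher and 6 lower members and 3 within-gene differences; same-numbered arrays, which also share a column of the slide, did not deviate together (r = -0.0408 over all probes and -0.234 over the members), so the number was not taken as a pairing. Median scaling, quantile normalisation, normexp, the stricter filter, noncoding probes added, the authors' table and outlier spots kept gave 14 to 25 higher and 7 lower members and 5 to 9 within-gene differences. A slide or scan block was not possible, as all arrays shared them. Apart from the array or probe set that each alternative changes, the cause of these shifts was not tested.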
